A study of Mus musculus with 2 samples.

Results

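The miRNA genes that lie within the Hox clusters of the mouse were examined in small RNA libraries of the gastrocnemius, a calf muscle of the hindlimb. They were taken by name from the annotation used for the counting and are Mir10a, Mir10b, Mir196a-1, Mir196a-2, Mir196b and Mir615, 6 of the 2202 miRNA genes counted. The material came from 2 male mice of the F1 strain B6CASTF1/J, 10 days old, which the labels name as separate animals and as biological replicates 1 and 2. Neither mouse was treated, so there is 1 group and no comparison between conditions. Both labels carry the same donor entry, however, so it is not certain that the animals were separate. They were treated as separate here. Differences between the libraries measure only the spread between these samples.

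Hox genes encode transcription factors that give cells their position along the body axis and along the limbs. Each cluster is ordered from the lowest paralog group it holds at its 3′ end to group 13 at its 5′ end. The genes toward the 5′ end are used in more posterior and more distal tissue. The clusters also hold miRNA genes, whose processed hairpins yield short RNAs that pair with messages through a seed at bases 2 to 8. In mouse embryos miR-196 directs the cleavage of Hoxb8 mRNA, and in human cells miR-10b represses HOXD10. Hox genes are therefore both neighbours and targets of these miRNAs.

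The mature arms are shown first because their near identity decides which reads can be assigned to which gene. They are RefSeq sequences (GRCm38.p6), 5′ to 3′, with the seed in capitals.
miR-10b-5p (Mir10b): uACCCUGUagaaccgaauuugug
miR-10a-5p (Mir10a): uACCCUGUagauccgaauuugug
miR-196b-5p (Mir196b): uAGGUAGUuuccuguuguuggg
miR-196a-5p (Mir196a-1 and Mir196a-2): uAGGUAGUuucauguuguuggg
miR-615-3p (Mir615): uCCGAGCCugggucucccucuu
miR-615-5p (Mir615): gGGGGUCCccggugcucggauc

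The 5p arms of miR-10 and miR-196 fell into 2 seed groups. The miR-10 arms shared the seed ACCCUGU and differed from each other at 1 base, A12U, written with the miR-10b base first, the position counted from the 5′ end, and then the miR-10a base. The miR-196 arms shared the seed AGGUAGU, and miR-196b differed from miR-196a at 1 base, C12A, written with the miR-196b base first. No other mature mouse miRNA of the RefSeq table had either seed. Both arms of Mir615 had seeds found in no other mature miRNA of that table. The 7 bases of the miR-196 seed also occur at bases 3 to 9 of let-7i-5p and let-7g-5p, shifted by 1 base from the let-7 seed.

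Mir196a-1 and Mir196a-2 are printed as whole hairpins because their 5p arms are identical. The letters are those of the GENCODE M21 transcripts on mm10, with both mature arms in capitals.
Mir196a-2 (chr15:102973350-102973434, plus strand): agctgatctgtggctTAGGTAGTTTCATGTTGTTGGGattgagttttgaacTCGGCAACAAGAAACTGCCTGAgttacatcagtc
Mir196a-1 (chr11:96265164-96265265, plus strand): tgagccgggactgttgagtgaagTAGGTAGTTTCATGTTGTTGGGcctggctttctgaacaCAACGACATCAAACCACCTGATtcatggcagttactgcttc
The longest stretch shared by these hairpins was 22 nt, which is the miR-196a-5p arm itself. A read that stays within those bases matches both genes, and reads with several matches were counted for no gene. The 3p arms of these 2 genes differ at 17 of 22 bases, so a read from them can be placed. The counts of Mir196a-1 and Mir196a-2 are uncertain for this reason, and how many reads they lost is not recorded in the tables. The other 4 genes shared at most 15 nt with any other annotated miRNA gene, the value for Mir10a and Mir10b with each other. With 1 mismatch allowed, however, each miR-10 5p arm matches both mir-10 hairpins and each miR-196 5p arm matches all 3 mir-196 hairpins, and how the authors' alignment treated mismatches is not given in the sources used here.

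The miRNA genes occupied corresponding places in the clusters. Coordinates are 1-based on mm10, and distances run to the nearest coding base of the neighbouring Hox gene. Mir10b (chr2:74726070-74726137, plus strand) lay in cluster D, 1141 nt upstream of the coding sequence of Hoxd4 and 19260 nt from that of Hoxd8, in introns of longer Hoxd3 and Hoxd4 transcripts. Mir10a (chr11:96317165-96317274, plus strand) lay at the same place in cluster B, 1495 nt upstream of Hoxb4 and 12030 nt from Hoxb5, in no annotated host transcript.

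The mir-196 genes lay upstream of a group 9 gene. Mir196b (chr6:52230081-52230165, minus strand) stood between Hoxa9, 3976 nt away, and Hoxa10, 2343 nt away, in an exon of 2 Hoxa9 transcripts and an intron of another. Mir196a-2 stood between Hoxc9, 8218 nt away, and Hoxc10, 2277 nt away, in an intron of 1 long Hoxc5 transcript. Mir196a-1 stood 6276 nt from Hoxb9, with the next gene on its other side, Hoxb13, at 68937 nt. Mir615 (chr15:103014910-103015001, plus strand) differed from the others in lying between the coding exons of a Hox gene, in an intron of Hoxc5. The only other annotated miRNA gene within 50 kb of the clusters, Gm44463 in cluster D, had no count, which allows up to 0.593 CPM in replicate 2 and 0.75 CPM in replicate 1.

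**Figure D1:**
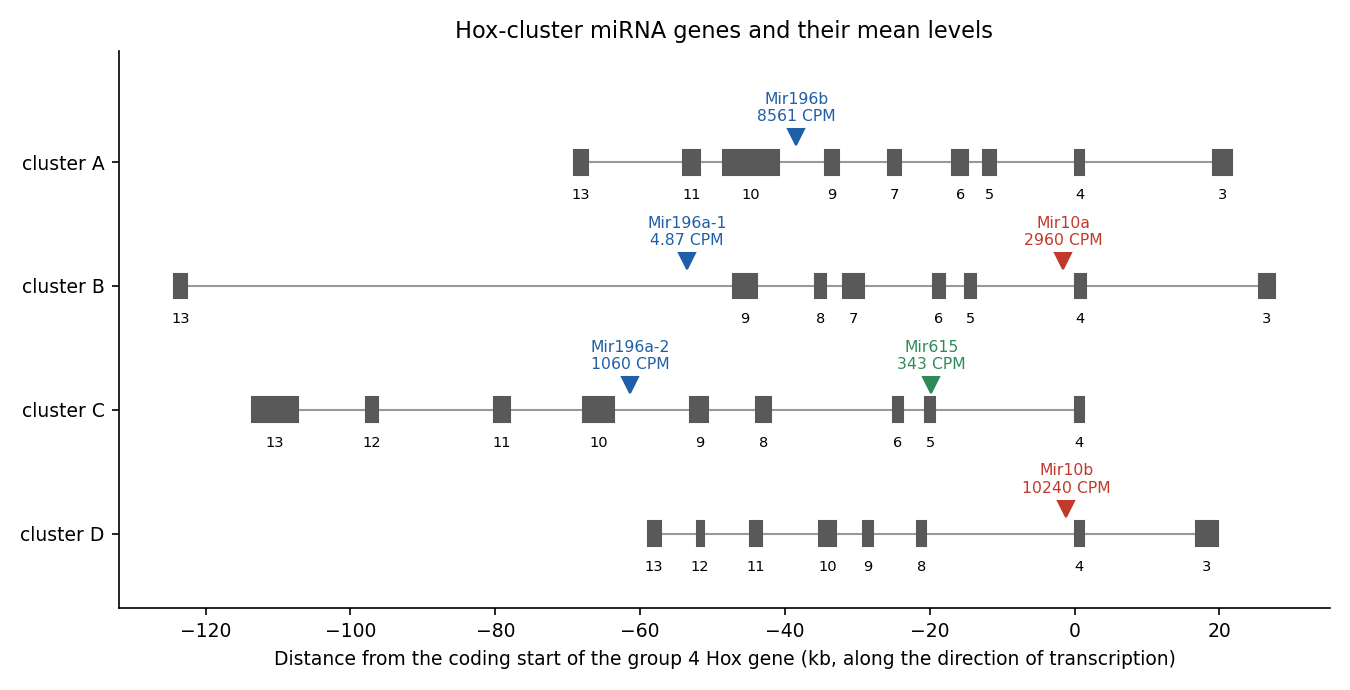
Map of the Hox clusters A to D. The x axis gives the distance in kb from the coding start of the group 4 gene along the direction of transcription; grey boxes are the coding spans of Hox genes of paralog groups 3 to 13, numbered by group, and triangles are the miRNA genes with their mean CPM. Mir10a and Mir10b stand beside group 4, and the mir-196 genes stand upstream of group 9.

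Each of the 6 genes passed the detection limit of 10 counts in each library, which 313 of all 2202 miRNA genes passed in both (14.2%). Replicate 2 held 5062714 counts assigned to miRNA genes and replicate 1 held 3999172. Levels are counts per 1000000 of these (CPM). The tables count hairpins, so they do not separate the 5p and 3p arms. As a check of the tissue, the skeletal muscle miRNA Mir206 stood at 87446 CPM in replicate 2 and at 100599 CPM in replicate 1. The muscle genes Mir1a-1 and Mir1a-2 averaged 2.61 and 102 CPM, and Mir133a-1 and Mir133a-2 averaged 5.84 and 1.67 CPM; the copies of each of these pairs carry the same main mature arm. In whole muscle, fewer cells of a type and less RNA per cell cannot be told apart. Intervals are exact (Clopper-Pearson, 95%) and cover counting error only.

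Mir10b, of cluster D, had the most assigned reads of the 6 genes. It had 51463 counts (10165 CPM) in replicate 2 and 41251 counts (10315 CPM) in replicate 1, or 10240 ± 106 CPM (SD, n = 2). That placed it at rank 21 of all miRNA genes, and it took 1.02% of the assigned counts. Its nearest neighbours in mean level were Mirlet7b (11283 ± 280 CPM) and Mir26b (10403 ± 749 CPM) above it, and Mir196b and Mir337 (6969 ± 85 CPM) below it. The difference between Mir26b and Mir10b was within the SD of Mir26b.

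Mir196b, of cluster A, came next, directly after Mir10b at rank 22. It had 41163 counts (8131 CPM) in replicate 2 and 35958 counts (8991 CPM) in replicate 1, or 8561 ± 609 CPM. Both of its values lay below both values of Mir10b.

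Mir10a, the cluster B relative of Mir10b, was lower and varied more between the libraries. Its counts were 16759 (3310 CPM) in replicate 2 and 10437 (2610 CPM) in replicate 1, or 2960 ± 495 CPM. It stood at rank 43 in replicate 2 and rank 52 in replicate 1. By mean level its nearest neighbours were Mir376c (3109 ± 170 CPM), Mir299a (3058 ± 331 CPM), Mir341 (2960 ± 100 CPM) and Mirlet7f-2 (2955 ± 100 CPM), all within the SD of Mir10a.

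The cluster C genes followed. Mir196a-2 had 5470 counts (1080 CPM) in replicate 2 and 4158 counts (1040 CPM) in replicate 1, or 1060 ± 29 CPM, at rank 68. Mir615 had 1583 counts (313 CPM) in replicate 2 and 1490 counts (373 CPM) in replicate 1, or 343 ± 42 CPM, at rank 116. The libraries were thus close for Mir196a-2 and further apart for Mir615.

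Mir196a-1, the other cluster B gene, was near the limit of detection in assigned reads. It had 24 counts in replicate 2 (4.74 CPM, interval 3.04 to 7.05) and 20 counts in replicate 1 (5.00 CPM, interval 3.05 to 7.72). The intervals overlapped almost fully, and its mean rank was 284.

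In both libraries the order of the levels by assigned reads was Mir10b, Mir196b, Mir10a, Mir196a-2, Mir615 and Mir196a-1, and the values of neighbours in this order did not overlap. The order was the same per nucleotide of hairpin, from 151 ± 1.6 CPM per nt for Mir10b to 0.0478 ± 0.0018 CPM per nt for Mir196a-1.

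**Figure D2:**
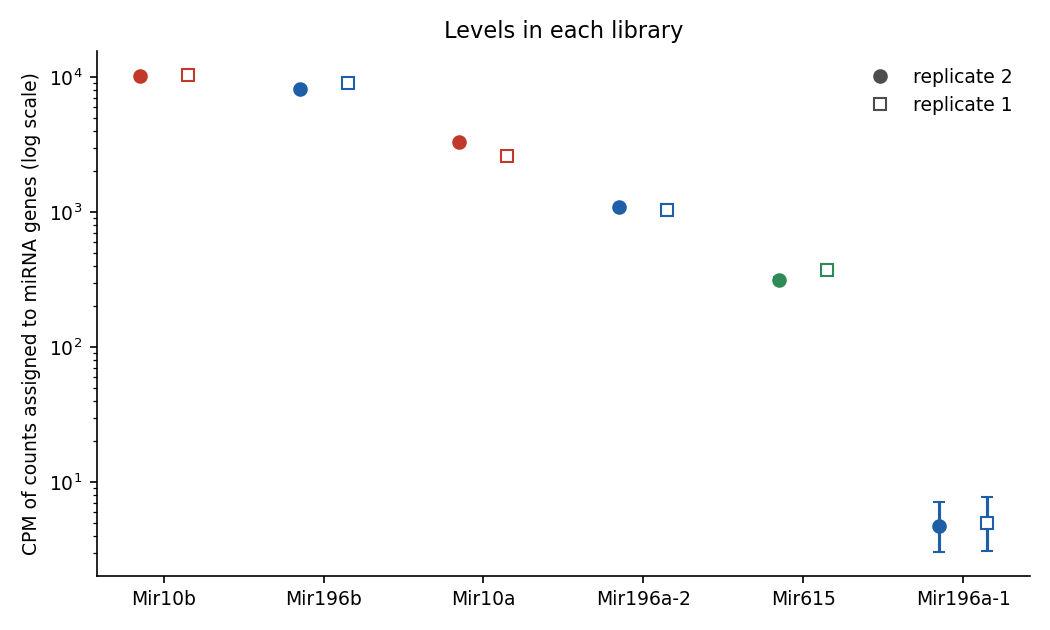
CPM of each gene on a log scale, in replicate 2 (filled circles) and replicate 1 (open squares), with exact 95% intervals that cover counting error only. The genes run from Mir10b at 10240 CPM to Mir196a-1 at 4.87 CPM, and the largest distance between the libraries relative to the level is that of Mir10a.

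Within each seed group the assigned reads were unequal between clusters. Mir10b exceeded Mir10a 3.07-fold in read count in replicate 2 (interval 3.02 to 3.12) and 3.95-fold in replicate 1 (interval 3.87 to 4.04), a mean log2 ratio of 1.80 ± 0.26. Per nucleotide of hairpin the mean ratio was 5.64-fold, because the annotated Mir10b hairpin has 68 nt and that of Mir10a 110 nt. The 5p arms of both genes have 23 nt, so the value per nucleotide depends on where the annotated hairpins end. Because both genes are read in the same library, the ratio of read counts does not depend on the scaling of the libraries. Its intervals did not overlap between the libraries.

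Mir196b exceeded Mir196a-2 7.53-fold in read count in replicate 2 (interval 7.32 to 7.74) and 8.65-fold in replicate 1 (interval 8.37 to 8.93). Their hairpins have the same length of 85 nt, so the mean of 8.07-fold also holds per nucleotide. The identity of the miR-196a-5p arms touches this ratio, since Mir196b shares no more than 12 nt with any other hairpin while Mir196a-2 shares 22 nt. Reads that stay within the shared arm are in no gene and their number is not known. The ratio and its direction therefore hold only for the assigned reads.

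The copies of mir-196a were also unequal in the reads assigned to them. Mir196a-2 exceeded Mir196a-1 228-fold in read count in replicate 2 (interval 153 to 356) and 208-fold in replicate 1 (interval 134 to 341), and per nucleotide the mean was 261-fold. These overlapping intervals are wide because Mir196a-1 had few reads. The ratio rests on reads that could be placed at 1 copy, and it says nothing of reads that match the shared arm alone.

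Genes of the same cluster did not have like numbers of assigned reads. In cluster B, Mir10a exceeded Mir196a-1 by a mean of 604-fold in read count and 560-fold per nucleotide. In cluster C, Mir196a-2 exceeded Mir615 3.46-fold in read count in replicate 2 (interval 3.27 to 3.66) and 2.79-fold in replicate 1 (interval 2.63 to 2.96), and 3.36-fold on average per nucleotide. By assigned reads, the gene beside the lower paralog group was thus the higher one in cluster B and the lower one in cluster C. Reads that stay within the miR-196a-5p arm shared by Mir196a-1 and Mir196a-2 are in no gene. The size of these ratios, and the direction in cluster B, therefore hold only for assigned reads.

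**Figure D3:**
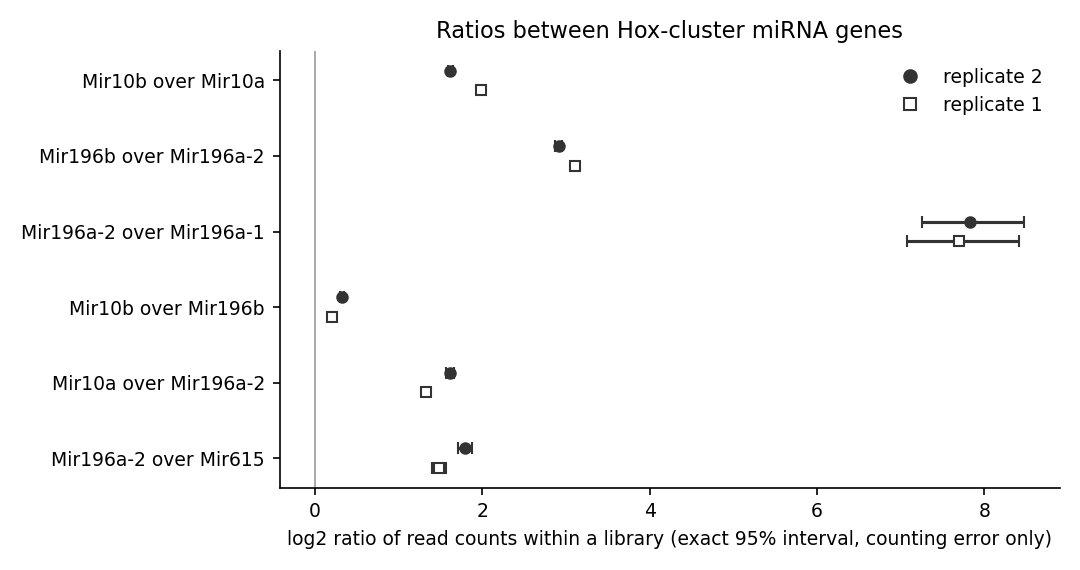
log2 ratio of read counts between named genes within replicate 2 (filled circles) and replicate 1 (open squares), with exact 95% intervals for counting error. The 6 ratios plotted lie above 0, from about 0.26 on average for Mir10b over Mir196b to 7.77 for Mir196a-2 over Mir196a-1.

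Summed by gene family, each called a position here, the mir-10 genes upstream of group 4 held the most assigned counts. Mir615 was kept as its own position, although it too lies between a group 4 gene and the coding start of a group 5 gene. Mir10a and Mir10b together reached 13475 CPM in replicate 2 and 12925 CPM in replicate 1, which was 56.99% ± 2.25 of the counts of the 6 genes. The 3 mir-196 genes together reached 9216 CPM in replicate 2 and 10036 CPM in replicate 1, or 41.5% ± 2.1. Mir615 made up 1.48% ± 0.17. The assigned sums did not overlap between positions in either library.

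Summed by cluster, D held 44.2% ± 0.013 and A held 36.9% ± 2.3, each through its single gene. Cluster B held 12.8% ± 2.3, nearly all of it assigned to Mir10a, and cluster C held 6.05% ± 0.0024. All 6 genes together reached 23004 CPM in replicate 2 and 23333 CPM in replicate 1, or 2.32% ± 0.023 of the assigned counts. The shares of the mir-196 position and of clusters B and C can be too low. Reads that stay within the miR-196a-5p arm shared by Mir196a-1 and Mir196a-2 are in no gene. The hairpins of the other genes were compared only with annotated hairpins, not with the rest of the genome. Whether reads of those genes were lost is therefore not known either. The order of the positions, the order of the clusters and the part of Mir10a in cluster B therefore hold only for assigned reads, and the unassigned ones could change them.

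The mir-10 genes have relatives outside the Hox clusters, the mir-99 and mir-100 genes, whose 5p arms carry the seed ACCCGUA, and the more distant mir-125 genes. The arms of Mir10a and Mir100 are printed to show the shared stretch, which is in capitals and holds 11 nt.
miR-10a-5p (Mir10a): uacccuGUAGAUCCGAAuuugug
miR-100-5p (Mir100): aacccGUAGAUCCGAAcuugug
The stretch starts at base 7 of miR-10a-5p and at base 6 of miR-100-5p, so the seeds of the arms differ although most of their centre is the same. Mir99a reached 19119 CPM in replicate 2 and 20248 CPM in replicate 1, Mir100 had 5402 and 5619 CPM, and Mir99b had 3952 and 4665 CPM in the same order. Together these 3 genes reached 28472 CPM in replicate 2 and 30532 CPM in replicate 1, against 13475 and 12925 CPM for Mir10a and Mir10b, and the sums did not overlap. The mir-125 genes reached 1327 CPM in replicate 2 and 1322 CPM in replicate 1, and Mir125b-1 and Mir125b-2 share 24 nt of hairpin, so their counts can be too low.

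The libraries were compared by an exact binomial test, two-sided, of each gene's counts against library totals scaled by the trimmed mean of M-values (TMM). The p-values were adjusted by Benjamini-Hochberg, with a threshold of 0.05, over the 332 miRNA genes that averaged 10 counts or more. The test allows for counting error only and compares these libraries, not conditions. Of all genes tested, 39.5% differed, 27.1% as higher and 12.3% as lower in replicate 2, or 90 higher and 41 lower genes. With plain library totals in place of TMM the split was 62 higher and 79 lower. Of the 6 Hox-cluster genes, 3 were higher, 2 were lower and 1 did not pass. The 5 that passed had at least 1490 counts in each library, and the one that did not had 24 and 20. The median log2 ratio, replicate 2 over replicate 1, was 0.022 over the 6 genes and 0.016 over all genes tested. The median absolute log2 ratio was 0.10 over the 6 genes and 0.16 over all. Over the 70 genes that averaged 1000 CPM or more it was 0.087, so the comparison depends on the genes set beside the 6.

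Mir10a showed the largest log2 ratio of the 5 genes called, at 0.41 (1.33-fold higher in replicate 2, exact interval of the log2 ratio 0.38 to 0.45). Its adjusted p in the exact binomial test was 5.64e-118. Among the 70 miRNA genes that averaged 1000 CPM or more, only Mir451a of red blood cells had a larger log2 ratio upward. The median absolute log2 ratio of these genes was 0.087. Mir322 followed closely at 0.40, and its interval of 0.38 to 0.41 overlapped that of Mir10a, so their order is not resolved. With plain library totals the log2 ratio of Mir10a was 0.34 and still second upward, although Mir214 then lay further from 0 in the other direction. Its cluster D relative Mir10b moved by a log2 ratio of 0.050 (interval 0.031 to 0.069, exact binomial adjusted p = 9.13e-07). With plain library totals the log2 ratio of Mir10b was -0.021 and no longer passed, so its direction depends on the scaling.

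Mir196a-2 was higher in replicate 2 by a log2 ratio of 0.13 (interval 0.068 to 0.19, exact binomial adjusted p = 9.65e-05), but with plain library totals it did not pass. Mir196b was lower with a log2 ratio of -0.074 (interval -0.094 to -0.053, exact binomial adjusted p = 1.07e-11), and with plain library totals the log2 ratio was -0.15. For Mir196a-1 the log2 ratio was -0.0059 with an interval of -0.92 to 0.93, which is too wide to show a difference at this depth. Mir615 was lower in replicate 2 with a log2 ratio of -0.18 (interval -0.28 to -0.079, exact binomial adjusted p = 0.00194), and with plain library totals the log2 ratio was -0.25.

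An exact test on a negative binomial model (edgeR), whose spread was estimated from these libraries, called none of the 6 genes (adjusted p = 1.0 for each, unadjusted p from 0.150 for Mir10a to 1.0 for Mir196a-1), and 1.81% of all genes tested were called. None of the 6 genes had an unadjusted p under 0.05 in that test. The spread of the model includes the difference between the libraries under test, so not passing does not show that levels were equal.

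By the exact binomial test, which called 39.5% of all genes tested, markers of other cell types also differed between the libraries. Of all the markers given here and in the next paragraph, the negative binomial exact test called only Mir451a (adjusted p = 0.000151) and Mir122 (adjusted p = 9.16e-05). The calls that follow are those of the exact binomial test. The endothelial Mir126a was higher in replicate 2, at 67925 CPM against 55784 CPM in replicate 1 (log2 0.36), and of the smooth muscle pair, which summed to 29712 CPM in replicate 2 and 24571 CPM in replicate 1, Mir143 was higher (log2 0.35) and Mir145a did not pass. Both erythroid markers were higher, with a sum of 4088 CPM in replicate 2 and 1680 CPM in replicate 1, as was the liver miRNA Mir122, at 272 CPM and 103 CPM. Of 4 leukocyte markers 2 were higher, with sums of 447 CPM in replicate 2 and 423 CPM in replicate 1.

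Other lists went the opposite way or had few reads. The 9 skeletal muscle markers summed to 88175 CPM in replicate 2 and 101176 CPM in replicate 1, with 4 higher and 1 lower of 8 tested. The lower one was Mir206 (log2 -0.13), which held nearly the whole sum. The 5 fibroblast markers summed to 3827 CPM in replicate 2 and 4296 CPM in replicate 1, with 1 lower of 4 tested. The 7 epithelial markers summed to 71.9 CPM in replicate 2 and 90.8 CPM in replicate 1, with 1 lower of 4 tested. The 4 kidney and gut markers summed to 15.01 CPM in replicate 2 and 22.3 CPM in replicate 1 with none called of 2 tested and Mir194-1 at 0, and the 6 neural markers summed to 1.38 CPM in replicate 2 and 0.5001 CPM in replicate 1, with Mir9-2, Mir124a-2 and Mir124a-3 at 0 and none above the filter. The part of these cell types in the difference of Mir10a was not tested.

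**Figure D4:**
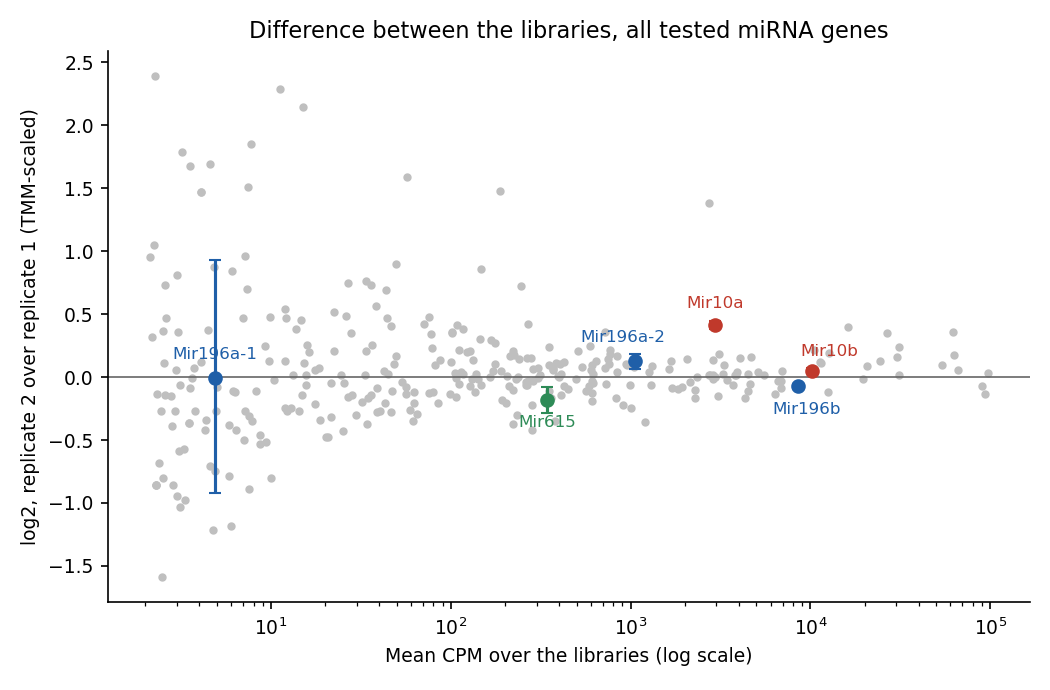
log2 ratio of replicate 2 over replicate 1, TMM-scaled, against the mean CPM on a log scale for the 332 tested miRNA genes (grey), with the 6 Hox-cluster genes coloured and exact 95% intervals for counting error. Mir10a lies at 0.41, with Mir451a the only gene above it among those of at least 1000 CPM, while Mir10b and Mir196b lie near 0 and Mir196a-1 has a wide interval.

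None of the 6 genes had a read on the strand opposite to it in either library, and their counts were the same in the unstranded column.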

How the data were processed

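For each library, the authors deposited raw counts of reads at 2202 miRNA genes, with 4 summary rows; per the metadata deposited with the tables, the assembly was mm10 and the annotation GENCODE M21. Not given in the sources used here are the aligner and the counting program. The sense column was used (5.53 times the opposite one in total). Summary rows, 60.7% of reads in replicate 2 and 58.7% in replicate 1, were left out of the totals; reads with several genomic matches are among them.

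The genes reported are the 6 members, other miRNA genes within 50 kb of the Hox clusters, the mir-99, mir-100 and mir-125 relatives, and the 2 genes next above and below Mir10a and Mir10b in level. Members, lists and tests were chosen with earlier results of these data known. A count of 0 allows up to 3 counts. Reads carry no molecular identifiers here, so intervals cover counting error only. Hox positions are the coding spans of CCDS transcripts, or of basic transcripts where a gene had none. Hairpin stretches of at least 20 nt were called shared, on either strand. Detection needed 10 counts in both libraries. The binomial test was tried on simulated Poisson counts, which hold counting error only, so that trial says nothing of spread between libraries. Alternatives were other denominators, scalings, filters, the unstranded column, each library alone and a negative binomial test. Python 3.11.15 (scipy 1.17.1), edgeR 4.0.16 and DESeq2 1.42.0 under R 4.3.3 were used.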

Additional observations from a re-analysis of the deposited data

Results flagged for a closer look

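Reads that matched several genomic places numbered 6186505 in replicate 2 and 4548703 in replicate 1. They are flagged because they lie outside the gene counts used above and exceed the limit that a count of 0 allows. Reads that stay within the arm shared by Mir196a-1 and Mir196a-2 would be among them, and how many there are is not recorded.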

How the results depend on the processing

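Of 165 recomputed values, 124 kept their direction and their side of the threshold or stayed within the spread of the replicates. Part of these could not have changed. With n = 2, a level, sum or ratio from either library alone always lies within the SD of the mean. Ratios between the 6 genes in the unstranded column rest on the same counts as in the sense column. With all reads as the denominator the levels were 4127 CPM for Mir10b (cluster D), 3454 CPM for Mir196b (cluster A), 1189 CPM for Mir10a, 427 CPM for Mir196a-2, 138 CPM for Mir615 and 1.96 CPM for Mir196a-1. The sums were then 9339 CPM for all 6 genes, 5317 CPM for the mir-10 position, 3883 CPM for the mir-196 position, 1191 CPM for cluster B and 565 CPM for cluster C. With the unstranded column, whose total is smaller because reads at overlapping miRNA genes are ambiguous in it, they were 12496 CPM for Mir10b, 10446 CPM for Mir196b, 3614 CPM for Mir10a, 1294 CPM for Mir196a-2, 418 CPM for Mir615 and 5.94 CPM for Mir196a-1, with sums of 28273 CPM for all, 16110 CPM for the mir-10 position, 11746 CPM for the mir-196 position, 3619 CPM for cluster B and 1712 CPM for cluster C. Both are shifts by construction. Per nucleotide of hairpin, the log2 ratios were 2.49 for Mir10b over Mir10a, 8.03 for Mir196a-2 over Mir196a-1, 0.58 for Mir10b over Mir196b, 1.10 for Mir10a over Mir196a-2 and 1.91 for Mir196b over Mir10a.

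The number of genes that differed between the libraries was 131 and ranged from 116 to 141 over scalings, filters and columns, but was 6 with edgeR's negative binomial exact test, where the adjusted p was 1.0 for Mir10a (log2 0.41), Mir10b (0.050), Mir196a-2 (0.13), Mir196b (-0.074) and Mir615 (-0.18). Plain library totals gave 62 higher and 79 lower genes, against 90 and 41 with TMM, with Mir10b at -0.021 (adjusted p = 0.0609, range over its alternatives 7.51e-07 to 1.0) and Mir196a-2 at 0.055 (adjusted p = 0.125, range 7.94e-05 to 1.0). The cause was not tested. The filter at 30 counts left Mir196a-1 out. The binomial test needs both libraries, so it was not run without either one. No paired analysis was possible because there is 1 group.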
